A study of Homo sapiens with 11 samples.

Results

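The hypoxia response and glycolysis genes described here are 40 of the 28395 genes counted in PC3 and DU145 human prostate cancer cells. They were chosen by name and found in the count tables by their Entrez identifiers. Of these, 22 genes code for glucose and lactate transporters, glycolytic enzymes and their regulators, and 18 for the hypoxia-inducible factor (HIF) alpha subunits, their oxygen sensors and other HIF target genes. Each line carried either a lentivirus for overexpression of ST6GAL1, a Golgi enzyme that adds sialic acid in α2-6 linkage to glycoproteins, or the Lenti-ORF negative control virus, so control cells had been transduced as well. There were 3 PC3 control, 3 PC3 overexpression and 3 DU145 control libraries, and 2 DU145 overexpression libraries (numbered replicates 2 and 3). Both lines are established, PC3 from a bone and DU145 from a brain metastasis, and each arm is described as a stable transduced line, so that p-values measure the spread between repeats of 1 line per arm and not between separate transductions. No oxygen or glucose treatment is named in the labels, and the values are mRNA levels.

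As background, HIF1A and EPAS1 (HIF2 alpha) are transcription factor subunits that are made continuously. When oxygen is present, the prolyl hydroxylases EGLN1 and EGLN3 mark them for VHL-directed degradation, and when oxygen is short they are stabilised, pair with ARNT and switch on target genes through a short DNA core. The targets include VEGFA (blood vessel growth), carbonic anhydrases (pH), BNIP3 and BNIP3L (removal of mitochondria) and nearly every step from glucose uptake to lactate export, and EGLN3 is itself a target that closes a feedback loop. Cancer cells often run glycolysis at a high rate also when oxygen is present, and the normal prostate is a tissue with an unusual, citrate-secreting metabolism.

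The HIF core was looked up in the RefSeq promoters of GRCh38.p14, each holding the 250 bases before and the 50 bases after an annotated start. The letters searched were ACGTG and GCGTG on both strands, where a CACGTG run counts once on each strand. A promoter was listed for 36 of the 40 members, with 67 starts in all. At least 1 core stood in 70.1% of these 67 promoters, in 85.0% of the 20 promoters of HIF members and in 63.8% of the 47 promoters of glycolysis and transport members, beside 48.4% of all 35116 promoters in the table. A match is a description of these letters only, and its absence says nothing about HIF. The 6 promoters below belong to members whose mRNA was higher (EGLN3, DDIT4) or lower (ADM, ANGPTL4) in DU145 overexpression cells, and to glycolytic members with several cores (PGK1, LDHA). They are written 5′ to 3′ on the strand of the gene, with the cores in capitals. EGLN3 is at chr14:33951025-33951324 (minus strand, no core), DDIT4 at chr10:72273674-72273973 (plus strand, 4 cores), ADM at chr11:10304823-10305122 (plus strand, 1 core), ANGPTL4 at chr19:8363905-8364204 (plus strand, 1 core), PGK1 at chrX:78103998-78104297 (plus strand, 4 cores) and LDHA at chr11:18394313-18394612 (plus strand, 6 cores, with both CACGTG runs counted on either strand).
EGLN3: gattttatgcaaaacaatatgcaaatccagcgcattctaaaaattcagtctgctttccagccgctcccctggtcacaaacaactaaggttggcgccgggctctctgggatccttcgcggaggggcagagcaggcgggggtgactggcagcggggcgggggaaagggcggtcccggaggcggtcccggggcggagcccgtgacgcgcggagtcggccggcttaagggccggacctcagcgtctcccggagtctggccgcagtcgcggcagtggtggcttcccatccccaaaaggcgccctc
DDIT4: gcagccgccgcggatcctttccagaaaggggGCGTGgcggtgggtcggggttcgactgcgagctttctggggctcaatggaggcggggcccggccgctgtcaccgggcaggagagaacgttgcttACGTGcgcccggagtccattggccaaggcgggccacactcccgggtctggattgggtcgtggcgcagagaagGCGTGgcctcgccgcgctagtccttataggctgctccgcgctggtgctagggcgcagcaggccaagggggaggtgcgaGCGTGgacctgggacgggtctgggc
ADM: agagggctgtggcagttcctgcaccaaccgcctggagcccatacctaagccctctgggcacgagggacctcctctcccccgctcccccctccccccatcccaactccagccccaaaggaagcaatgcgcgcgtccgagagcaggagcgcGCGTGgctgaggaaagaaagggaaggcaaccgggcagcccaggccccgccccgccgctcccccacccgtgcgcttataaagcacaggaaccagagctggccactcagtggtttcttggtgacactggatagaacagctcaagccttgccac
ANGPTL4: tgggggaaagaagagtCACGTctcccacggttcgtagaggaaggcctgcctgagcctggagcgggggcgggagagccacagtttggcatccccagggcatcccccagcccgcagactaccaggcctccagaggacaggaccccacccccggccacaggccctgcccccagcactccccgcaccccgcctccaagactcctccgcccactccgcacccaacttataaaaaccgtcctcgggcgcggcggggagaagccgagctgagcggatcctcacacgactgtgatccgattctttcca
PGK1: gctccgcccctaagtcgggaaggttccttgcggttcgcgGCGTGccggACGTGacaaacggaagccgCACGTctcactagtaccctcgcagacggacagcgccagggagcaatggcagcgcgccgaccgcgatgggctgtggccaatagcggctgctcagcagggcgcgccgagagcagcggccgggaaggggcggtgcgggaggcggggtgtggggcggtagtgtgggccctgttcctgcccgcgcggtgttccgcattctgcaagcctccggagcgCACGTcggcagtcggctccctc
LDHA: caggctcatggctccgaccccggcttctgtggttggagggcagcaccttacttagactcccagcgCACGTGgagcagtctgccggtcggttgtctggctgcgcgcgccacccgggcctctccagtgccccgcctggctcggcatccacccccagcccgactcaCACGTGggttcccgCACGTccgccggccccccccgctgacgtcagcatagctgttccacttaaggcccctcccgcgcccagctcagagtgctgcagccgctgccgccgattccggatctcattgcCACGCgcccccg

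Counts on genes totalled 13194485 to 18201359 per library, and a count of 3, taken as the floor, corresponded to 0.165 to 0.227 CPM, the count scaled to a common library total. The 40 members took 1.51% to 1.62% of the counts of PC3 libraries and 2.27% to 2.45% of those of DU145 libraries. ST6GAL1 was read at 2.98, 2.08 and 3.06 normalised CPM in PC3 control and 33.3, 31.7 and 32.5 in PC3 overexpression libraries, and at 14.3, 13.2 and 11.3 against 345 and 298 in DU145, so every library matched its label. The epithelial markers KRT8, KRT18, KRT19, EPCAM and CDH1 were read in both lines. HBB and CD3E had 0 counts throughout. The blood list summed to 0.378 to 0.938 normalised CPM in PC3 and 1.34 to 2.73 in DU145, and the endothelial list to 12.2 to 14.7 and 0.576 to 2.01. Epithelial markers also moved with overexpression. CDH1 rose in both lines (log2 fold change 1.37 in PC3 and 0.26 in DU145, edgeR adjusted p = 7.85e-18 and 0.0258) and KRT8, KRT18, KRT19 and EPCAM fell in DU145, where the summed level of the list was 1303 to 1351 normalised CPM in control and 1038 to 1174 in overexpression libraries. In PC3, KRT8 fell and KRT19 rose, and the summed level was 862 to 895 in control and 890 to 899 in overexpression libraries. The fibroblast list summed to 24.9 to 27.1 normalised CPM in PC3 control and 18.3 to 19.4 in PC3 overexpression libraries, and to 3.78 to 7.29 in DU145. The part of these markers in the results below was not tested. The DU145 overexpression libraries also differed from each other by the GC content of transcripts. Over 12154 genes the log2 difference of replicate 3 from replicate 2 had a Pearson r of 0.65 with GC content as a description, against -0.09 to 0.26 in the other pairs of replicates.

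In control cells some paralogs differed widely between the lines, while HK1, ALDOA, ENO1, HIF1A and CA12 led their families in both. HK2, the inducible hexokinase that starts glycolysis, was read at 199.94, 197 and 199.97 normalised CPM in PC3 and 24.0, 22.8 and 23.7 in DU145. ALDOC, an aldolase best known from brain, was read at 34.2, 40.3 and 40.2 in PC3 and 1.99, 2.18 and 2.01 in DU145. Both were many times higher in every PC3 control library. SLC2A3, the high-affinity glucose transporter GLUT3, had no count in any of the 6 PC3 libraries, which allows up to 0.165 to 0.204 CPM, and counts of 11, 12 and 6 in DU145 control libraries.

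**Figure D1:**
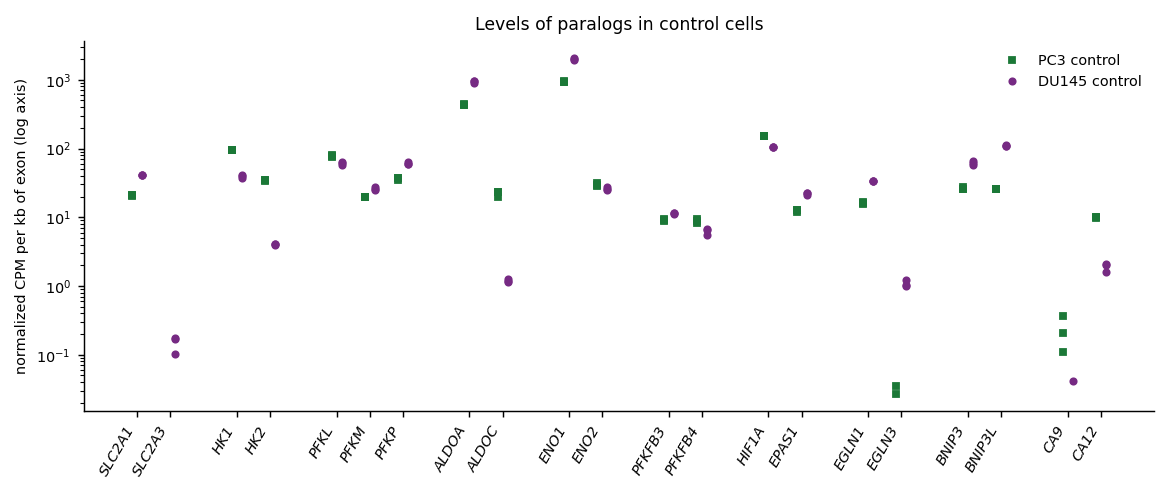
Normalised CPM per kilobase of exon, on a log axis, of the members of 10 families in the 3 PC3 control libraries (green squares) and the 3 DU145 control libraries (purple circles). SLC2A3 in PC3, EGLN3 in 1 PC3 library and CA9 in 2 DU145 libraries had a count of 0 and are not drawn. HK2, ALDOC and CA12 lie higher in PC3 and EGLN3 and BNIP3L higher in DU145.

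Levels were compared between genes only per kilobase of exon. The SD measures the spread between libraries and not any error from the exon length used or from GC content. HK1, the housekeeping hexokinase, stood at 95.1 ± 0.737 normalised CPM per kilobase in PC3 (SD, n = 3) and HK2 at 34.3 ± 0.319, while in DU145 they stood at 39.4 ± 2.53 and 4.06 ± 0.105. HK1 was therefore the more abundant hexokinase of both lines, by a wider margin in DU145. Of the phosphofructokinases, which commit glucose to glycolysis, PFKL (liver type) led in PC3 at 78.0 ± 1.84 per kilobase, with PFKP (platelet type) at 36.2 ± 1.32 and PFKM (muscle type) at 19.6 ± 0.224. In DU145 PFKL at 60.4 ± 2.95 and PFKP at 61.0 ± 1.51 did not differ beyond their spread, and PFKM was at 25.9 ± 1.38. SLC2A1 (GLUT1, the main glucose importer of most cancer cells) stood at 20.9 ± 0.701 in PC3 and 41.6 ± 0.111 in DU145, ALDOA at 438 ± 8.60 and 947 ± 38.8, and ENO1 at 934 ± 13.7 and 2012 ± 93.2, against 29.9 ± 1.76 and 26.3 ± 1.46 for ENO2, the neuronal enolase. PFKFB3, whose product switches phosphofructokinase on, was at 9.05 ± 0.293 and PFKFB4, its relative, at 8.92 ± 0.611 in PC3, which did not differ beyond their spread, and at 11.5 ± 0.292 and 6.20 ± 0.682 in DU145.

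Among HIF members, HIF1A stood above EPAS1 in both lines, at 153 ± 1.12 against 12.4 ± 0.444 normalised CPM per kilobase in PC3 and 105 ± 0.879 against 22.02 ± 1.07 in DU145. EGLN1, the main oxygen sensor, was at 16.3 ± 0.528 in PC3 and 33.6 ± 0.357 in DU145, and EGLN3 was hardly read in PC3, with counts of 3, 0 and 2, against 75, 76 and 81 in DU145. BNIP3 at 26.4 ± 0.803 and BNIP3L at 25.7 ± 0.371 per kilobase were alike in PC3, whereas in DU145 BNIP3L led at 110.3 ± 1.77 over 61.6 ± 3.87. CA12, a membrane carbonic anhydrase, exceeded CA9 in both lines, at 10.1 ± 0.234 against 0.229 ± 0.130 in PC3, while CA9 had counts of 0, 1 and 0 in DU145. DDIT4, an inhibitor of mTORC1, was at 10.7, 10.2 and 10.9 normalised CPM in PC3 and 149, 151 and 141 in DU145, and VEGFA at 42.7, 44.7 and 40.2 and 181, 192 and 176. In both genes all DU145 control libraries were above all PC3 control libraries.

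Between the lines, 36 of 38 members tested had an adjusted p under 0.05 by edgeR's quasi-likelihood test (88.2% of all 14246 genes tested), 12 higher in PC3 (44.1% of genes) and 24 lower (44.1%). With an absolute log2 fold change over 0.58 added, 21 members were called, or 55.3%, beside 64.6% of all genes. Of these, 6 were higher in PC3, beside 32.8% of all genes, namely HK2 (log2 fold change 3.08, standard error 0.0549, edgeR adjusted p = 4.69e-27), ALDOC (4.21), CA12 (2.39), ANKRD37 (1.79, an ankyrin protein of unclear role), ADM (1.51, a vasodilator peptide) and HK1 (1.27). The 15 that were higher in DU145, beside 31.8% of all genes, included DDIT4 (log2 fold change -3.79, standard error 0.0645, edgeR adjusted p = 1.64e-27), VEGFA (-2.11), BNIP3L (-2.10), BNIP3 (-1.22), ALDOA (-1.11), ENO1 (-1.11), GAPDH (-1.08), EGLN1 (-1.04), GPI (-1.02) and SLC2A1 (-0.99), all as PC3 minus DU145, and EGLN3 on the counts above. The lines were deposited in separate tables, and line and any difference in library preparation or sequencing between the tables cannot be told apart.

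In DU145, ST6GAL1 overexpression went with higher mRNA of both HIF alpha subunits and of several HIF targets, with a fall in the targets ADM and ANGPTL4, and with no called change in any glycolytic enzyme or transporter. All 9 called members were HIF members (9 of 17 tested), with 7 higher and 2 lower, and 0 of the 22 glycolysis and transport members were called. Of all 13676 genes tested, 8.94% were called, 4.33% higher and 4.61% lower. The median log2 fold change was 0.29 over the 17 HIF members tested, -0.05 over the 22 glycolysis and transport members and -0.0016 over all genes. With the trend in GC content and length removed, these medians were 0.19, 0.033 and -0.0011. They were 0.21, -0.055 and -0.0082 without overexpression replicate 2, and 0.36, 0.010 and 0.0042 without replicate 3. Of the 40 members, 39 passed the filter on low counts, and CA9 did not. As the samples are bulk RNA, more cells with a transcript and more RNA per cell cannot be told apart.

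**Figure D2:**
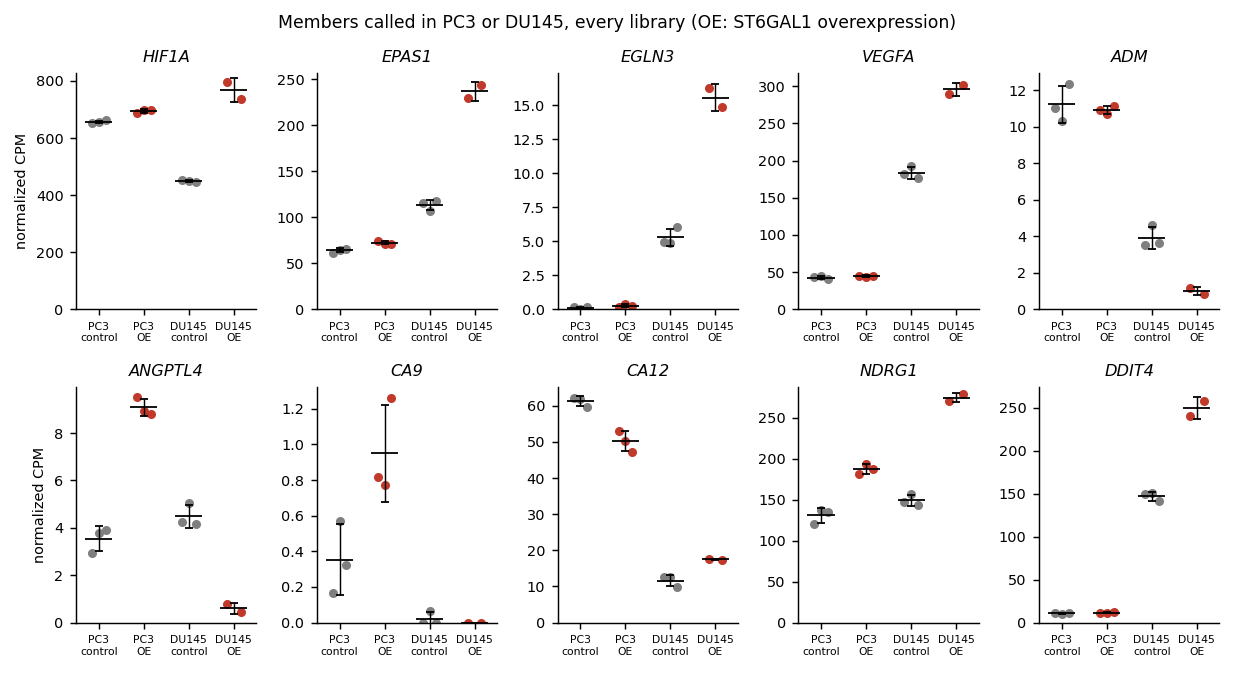
Normalised CPM of the 10 members called in either line, in every library (grey, control; red, overexpression), with the group mean as a bar and its SD as error bars, each axis from 0. In DU145 the overexpression libraries lie above all controls for HIF1A, EPAS1, EGLN3, VEGFA, CA12, NDRG1 and DDIT4 and below them for ADM and ANGPTL4, and in PC3 they lie above all controls for HIF1A, EPAS1, NDRG1, ANGPTL4 and CA9 and below them for CA12.

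HIF1A (chromosome 14, 61695513 to 61748258) was read at 454, 449.9 and 447 normalised CPM in DU145 control and 797 and 737 in overexpression libraries. Its rise was 1.72-fold (log2 fold change 0.78, standard error 0.0754, edgeR adjusted p = 6.57e-06). Of the 50 tested genes nearest to HIF1A on chromosome 14, 43 were above 0 (median log2 fold change 0.23), and the part of this neighbourhood in the value was not tested. Without strand in the counting, reads of the overlapping HIF1A-AS1 and HIF1A-AS2 cannot be told apart from HIF1A, but these had 121 and 139 counts in all libraries together against 111556. EPAS1 (chromosome 2, 46297407 to 46386697) rose further, from 116, 107 and 118 to 229 and 244 normalised CPM, or 2.11-fold (log2 fold change 1.08, standard error 0.0753, edgeR adjusted p = 3.92e-07). For either subunit the lowest overexpression library lay well above the highest control, and HIF1A remained the more abundant per kilobase, at 179 ± 9.82 against 45.9 ± 2.03 (SD, n = 2).

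Of the oxygen sensors and feedback genes, EGLN3 (chromosome 14, 33924227 to 33951074) was read at 4.97, 4.86 and 6.03 normalised CPM in control and 16.2 and 14.8 in overexpression cells. It rose 2.97-fold (log2 fold change 1.57, standard error 0.147, edgeR adjusted p = 5.19e-06), the largest rise among the members tested in DU145. EGLN1 was at 144, 147 and 146 against 152 and 145 and did not pass the test (log2 fold change 0.04, standard error 0.0717, edgeR adjusted p = 0.73). In EGLN1 an overexpression library fell among the controls, unlike in EGLN3. KDM3A, a histone demethylase, had a log2 fold change of 0.20 (edgeR adjusted p = 0.105), and ANKRD37, on counts of 17, 12 and 9 against 15 and 14, one of 0.02 (edgeR adjusted p = 0.972).

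The secreted HIF targets went in opposite directions. VEGFA (chromosome 6, 43770211 to 43786487), the main vascular growth factor, was at 181, 192 and 176 normalised CPM in control and 289.6 and 302 in overexpression cells, a 1.63-fold rise (log2 fold change 0.70, standard error 0.0716, edgeR adjusted p = 1.08e-05). ADM (chromosome 11, 10305073 to 10307397) was at 3.51, 4.61 and 3.64 and 1.154 and 0.836, a 3.92-fold fall (log2 fold change -1.97, standard error 0.268, edgeR adjusted p = 0.00014). ANGPTL4 (chromosome 19, 8364155 to 8374370), a secreted inhibitor of lipoprotein lipase, was at 4.24, 5.06 and 4.17 and 0.769 and 0.446, a 7.36-fold fall (log2 fold change -2.88, standard error 0.289, edgeR adjusted p = 9.51e-06). No overexpression library of any of these 3 genes came within the range of the controls. They were named because they were called, so this separation adds nothing to the test. A minimum of 10 counts in every sample removed ANGPTL4. Among the 50 neighbours of ANGPTL4, 35 were below 0 (median log2 fold change -0.20), whose part in its value was not tested. ADM and ANGPTL4 are low in these cells, with 18 and 15 and 12 and 8 counts in the overexpression libraries, and when single libraries were omitted their log2 fold changes lay between -2.22 and -1.74 and between -3.31 and -2.51.

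NDRG1 (chromosome 8, 133237175 to 133297252), a stress-induced protein linked to differentiation, was at 147, 157 and 144 normalised CPM in control and 270.4 and 278 in overexpression cells (log2 fold change 0.89, standard error 0.0713, edgeR adjusted p = 1.46e-06). DDIT4 (chromosome 10, 72273924 to 72276036) was at 149, 151 and 141 and 241 and 258 (log2 fold change 0.78, standard error 0.0719, edgeR adjusted p = 4.74e-06). CA12 (chromosome 15, 63321378 to 63381846) was at 12.6, 12.5 and 9.82 and 17.6 and 17.4 (log2 fold change 0.60, standard error 0.133, edgeR adjusted p = 0.0057). The groups did not overlap in any of these 3 genes, but CA12 stood close to the fold threshold, and its log2 fold change was 0.57 without overexpression replicate 2 and 0.49 without control replicate 3, below it. Of 50 neighbours of NDRG1, 39 were above 0 (median 0.18), whose part in its value was not tested. MXI1, a MYC antagonist, and ERO1A, which drives disulfide bond formation in the endoplasmic reticulum, rose less (0.33 and 0.29, edgeR adjusted p = 0.0227 and 0.0141). Among the 50 neighbours of ERO1A, 39 were above 0 (median 0.19), whose part in its value was not tested. INSIG2, which holds back sterol synthesis, had 0.16 (edgeR adjusted p = 0.275). BNIP3L fell (log2 fold change -0.29, standard error 0.0796, edgeR adjusted p = 0.0204) from 409.6, 418 and 405 to 355 and 312 normalised CPM, while its chromosomal neighbours had a median of -0.36 with 5 of 50 above 0. BNIP3 had -0.23 (edgeR adjusted p = 0.0565). The passes of MXI1, ERO1A and BNIP3L were lost when single libraries were left out, with an adjusted p of up to 0.148, 0.0983 and 0.0757 by edgeR.

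Glycolysis and transport members in DU145 that passed the test went in both directions. With no fold threshold, 17 members passed by edgeR at an adjusted p under 0.05, with 11 higher and 6 lower, where 20.1% of all genes passed (10.7% higher, 9.42% lower), and 5 of these 17 were glycolysis members. At an unadjusted p under 0.05 there were 6 such members, and limma-voom and DESeq2 called 0 as well. With the trend in GC content and length removed, 8 glycolysis and transport members passed and 0 were called. HK1 rose from 196, 186 and 172 to 252 and 249.5 normalised CPM (log2 fold change 0.46, standard error 0.0750, edgeR adjusted p = 0.000693), and PFKFB3 from 63.4, 60.6 and 63.3 to 78.9 and 82.1 (log2 fold change 0.38, standard error 0.0786, edgeR adjusted p = 0.00348). ENO2 fell from 88.0, 82.3 and 78.8 to 65.9 and 62.6 (log2 fold change -0.36, standard error 0.0827, edgeR adjusted p = 0.00742). In these 3 genes both overexpression libraries lay outside the range of the controls. PGAM1, which shifts the phosphate on 3-phosphoglycerate, fell as well (log2 fold change -0.26, edgeR adjusted p = 0.019), as did PFKP (-0.41, edgeR adjusted p = 0.0271). Without single libraries the edgeR adjusted p of PFKP reached 0.141, that of PGAM1 0.0754 and that of ENO2 0.0560, while HK1 and PFKFB3 passed in each case.

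**Figure D3:**
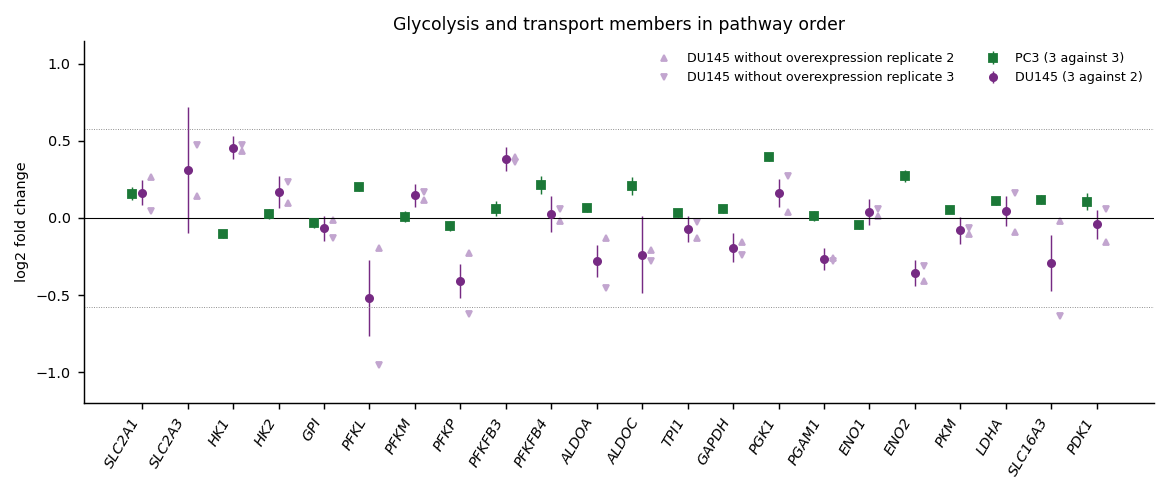
Log2 fold change (overexpression against control) of the 22 glycolysis and transport members in pathway order, from uptake to lactate export, with PDK1 last. Green squares are PC3 and purple circles DU145, with standard errors, pale triangles are DU145 without either overexpression library, and dotted lines mark 0.58. All DU145 values lie within the dotted lines, while PFKL, PFKP and SLC16A3 pass the lower line once overexpression replicate 3 is left out. SLC2A3 was not tested in PC3.

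The most abundant glycolytic transcripts showed no change that passed the test in DU145. GAPDH was at 6094, 6189 and 5504 normalised CPM in control and 4948 and 5329.6 in overexpression libraries (log2 fold change -0.19, standard error 0.0939, edgeR adjusted p = 0.174). ENO1 was at 3708, 3879 and 3536 and 3805 and 3738 (log2 fold change 0.04, standard error 0.0869, edgeR adjusted p = 0.795). ALDOA was at 2089, 2259 and 2226 and 1571 and 2009 (log2 fold change -0.28, standard error 0.103, edgeR adjusted p = 0.0729). GAPDH and ALDOA were below all controls in both overexpression libraries, and the ENO1 libraries lay among the controls. Among the 50 neighbours of ALDOA, 40 were below 0 (median log2 fold change -0.22), whose part in its value was not tested. PKM and LDHA, the last steps to pyruvate and lactate, had log2 fold changes of -0.08 and 0.05, TPI1 -0.07, GPI -0.07, PGK1 0.16, HK2 0.17, PFKM 0.15, PFKFB4 0.03 and PDK1, which keeps pyruvate out of mitochondria, -0.04. SLC2A1 was at 154, 154 and 153 against 156 and 185 (log2 fold change 0.16, edgeR adjusted p = 0.172). The low-count members ALDOC (26 and 32 counts in overexpression libraries) and SLC2A3 (14 and 13) had -0.24 and 0.31, with standard errors of 0.248 and 0.409.

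For members with GC-rich transcripts, the DU145 overexpression libraries disagreed. PFKL (63.4% GC) was at 169, 179.9 and 186 normalised CPM in control and at 90.4 and 156 in overexpression replicates 2 and 3. SLC16A3 (64.7% GC), the lactate exporter MCT4, was at 178, 185 and 187 and 116 and 180.4. PFKP (57.8% GC) was at 266, 265 and 277 and 172 and 229.8. In each, replicate 2 was far below the controls and replicate 3 nearer to them. Neighbours of PFKL (38 of 50 below 0, median log2 fold change -0.24) and of SLC16A3 (32 of 40 below 0, median -0.22) were mostly lower too. Their part in these values was not tested. Without replicate 3, PFKL, PFKP and SLC16A3 were called lower (log2 fold changes -0.96, -0.62 and -0.63, edgeR adjusted p = 6.79e-08, 6.14e-06 and 4.72e-06). Without replicate 2 they were -0.19, -0.23 and -0.02 (edgeR adjusted p = 0.107, 0.0461 and 0.877), and with the trend in GC content and length removed -0.20, -0.25 and 0.07. Other members passed without only 1 of the libraries. Without replicate 3, ALDOA (-0.46, edgeR adjusted p = 0.00132), PGK1 (0.27, edgeR adjusted p = 0.0275) and KDM3A (0.29, edgeR adjusted p = 0.00778) passed, against -0.13, 0.04 and 0.10 without replicate 2. Without replicate 2, SLC2A1 (0.26, edgeR adjusted p = 0.0144) and BNIP3 (-0.30, edgeR adjusted p = 0.0120) passed, against 0.05 and -0.16 without replicate 3. Of the 9 called HIF members, 8 stayed called without replicate 2 and with the trend removed, CA12 having 0.57 and 0.55, and all 9 without replicate 3. Their values without replicate 2 and without replicate 3 were 0.71 and 0.85 for HIF1A, 1.10 and 1.04 for EPAS1 and 1.49 and 1.65 for EGLN3, but -2.22 and -1.74 for ADM and -3.31 and -2.51 for ANGPTL4, a wider gap on few counts.

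**Figure D4:**
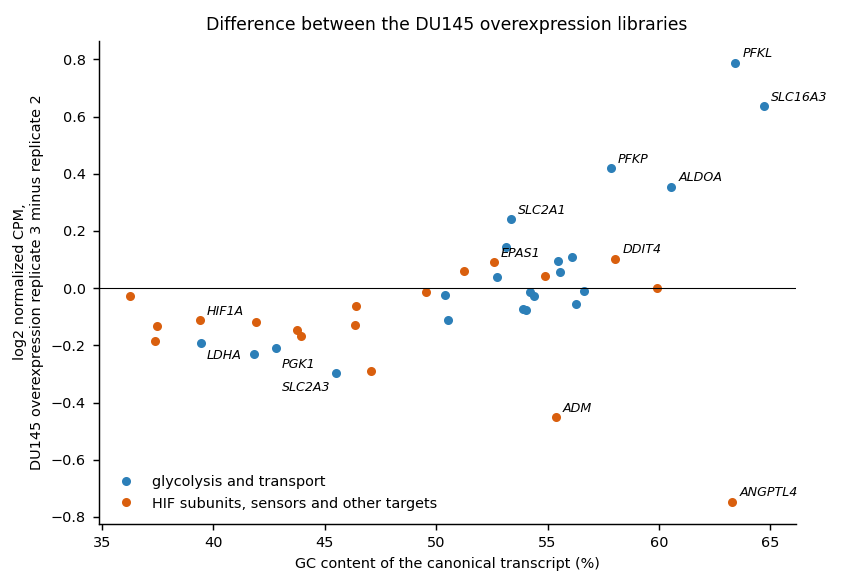
Log2 difference in normalised CPM between DU145 overexpression replicates 3 and 2 against the GC content of the transcript, for the members (blue, glycolysis and transport; orange, HIF subunits, sensors and other targets). PFKL, SLC16A3, PFKP and ALDOA lie highest at the GC-rich end, and ANGPTL4 and ADM, with few counts, lie lowest. CA9, with 0 counts in both libraries, is drawn at 0.

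In PC3 the members changed little in size. By edgeR, 20 of the 38 tested passed at an adjusted p under 0.05, with 18 higher and HK1 and CA12 lower, where 37.3% of all 13544 genes passed (18.8% higher, 18.5% lower). ANGPTL4 and CA9 were the 2 members called, both higher, where 5.38% of all genes were called and 3.61% were called higher. The median log2 fold change was 0.06 over 21 glycolysis and transport members and 0.09 over 17 HIF members, beside -0.0016 over all genes. With the trend in GC content and length removed, these medians were 0.0065, 0.07 and -0.03. The spread between PC3 libraries was small, with a biological coefficient of variation of 0.0226 against 0.0817 in DU145, and changes as small as 0.06 on the log2 scale passed the test. When the spread was shared over all 11 libraries of both lines, 10 members passed, and ANGPTL4 and CA9 remained called. SLC2A3 and EGLN3 were not tested.

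ANGPTL4 rose in PC3, from 2.92, 3.78 and 3.90 to 9.51, 8.94 and 8.83 normalised CPM, or 2.58-fold (log2 fold change 1.37, standard error 0.132, edgeR adjusted p = 2.97e-11). CA9 (chromosome 9, 35673928 to 35681159), a carbonic anhydrase often used as a marker of hypoxia, had counts of 3, 9 and 5 in control and 12, 14 and 20 in overexpression libraries (log2 fold change 1.43, standard error 0.410, edgeR adjusted p = 0.00509). The groups did not overlap in either gene. The CA9 call rests on few counts: its log2 fold change was 1.06 without control replicate 1 and 1.17 without overexpression replicate 3 (edgeR adjusted p = 0.0569 and 0.0608), and a minimum of 10 counts in every sample removed it. NDRG1 came next, at 121, 137 and 135 and 181, 193 and 188 normalised CPM (log2 fold change 0.52, standard error 0.0388, edgeR adjusted p = 1.94e-12), short of the fold threshold. CA12 fell, from 62.3, 61.9 and 59.7 to 53.1, 50.4 and 47.3 (log2 fold change -0.29, standard error 0.0466, edgeR adjusted p = 3.53e-06). EGLN3 had counts of 3, 0 and 2 and 2, 7 and 4, at or near the floor of 3 counts, and no fold is given.

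The HIF subunits rose slightly in PC3, HIF1A from 652, 655 and 661 to 687, 699 and 698 normalised CPM (log2 fold change 0.08, edgeR adjusted p = 0.00447) and EPAS1 from 61.5, 64.9 and 65.9 to 73.9, 71.4 and 71.1 (0.17, edgeR adjusted p = 0.00115). With the spread shared over all libraries HIF1A no longer passed (edgeR adjusted p = 0.211). BNIP3, BNIP3L and EGLN1 rose by log2 fold changes of 0.22, 0.16 and 0.16. VEGFA at 42.7, 44.7 and 40.2 against 44.8, 42.9 and 45.1, ADM at 11.01, 10.3 and 12.4 against 10.9, 10.7 and 11.2 and DDIT4 at 10.7, 10.2 and 10.9 against 11.01, 10.9 and 11.9 overlapped between the groups and did not pass the test, nor did KDM3A, MXI1, ERO1A, INSIG2 and ANKRD37, whose log2 fold changes ranged from -0.29 (ANKRD37) to 0.11 (MXI1).

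Among glycolysis and transport members in PC3, 11 of 21 tested passed by edgeR, 10 higher, beside 37.3% of all genes (18.8% higher), and 0 were called, by limma-voom and DESeq2 too. At an unadjusted p under 0.05 there were 12. With the spread shared over all 11 libraries, PGK1 and ENO2 were the 2 that passed, and the other 9 did not, with edgeR adjusted p from 0.0507 (ALDOC) to 0.607 (SLC16A3), and 0.467 for PFKL and 0.119 for HK1. PGK1 (chromosome X, 78104248 to 78129295), which makes the first ATP of the pathway, rose most, from 836, 856 and 847 to 1129, 1099 and 1103 normalised CPM (log2 fold change 0.39, standard error 0.0235, edgeR adjusted p = 1.63e-17). Of its 50 neighbours on the X chromosome 39 were above 0 (median log2 fold change 0.22), whose part was not tested. ENO2 at 88.9, 100.05 and 94.3 against 113, 116 and 111 (log2 fold change 0.27, standard error 0.0388, edgeR adjusted p = 3.63e-07) and PFKL at 225, 236 and 229 against 262, 263 and 267 (log2 fold change 0.20, standard error 0.0286, edgeR adjusted p = 2.95e-07) rose without overlap between the groups. PFKFB4 (0.21), ALDOC (0.21), SLC2A1 (0.16), SLC16A3 (0.12), LDHA (0.11), ALDOA (0.06) and GAPDH (0.06) rose less. Without control replicate 1, ALDOC had 0.13 (edgeR adjusted p = 0.0773), ALDOA 0.05 (0.104) and GAPDH 0.04 (0.200), and ALDOA and GAPDH also lost their passes without each of the overexpression libraries. HK1 fell, from 445, 442 and 449 to 417, 419 and 404 (log2 fold change -0.11, standard error 0.0255, edgeR adjusted p = 0.000903). HK2, GPI, PFKM, PFKP, TPI1, PGAM1, ENO1, PKM, PFKFB3 and PDK1 did not pass, with log2 fold changes from -0.05 (PFKP) to 0.10 (PDK1). With the trend in GC content and length removed, 11 members passed as well, but they were less one-sided. HK1 (-0.16), PFKP (-0.12), GPI (-0.08) and ENO1 (-0.07) then passed as lower. ALDOA, GAPDH and SLC16A3 no longer passed (edgeR adjusted p = 0.846, 0.432 and 0.490).

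The lines differed in their response. In a test of the difference itself over all 11 libraries, 18 of 40 members had an adjusted p under 0.05 by edgeR (19.7% of 14952 genes). Of these, 9 were higher in DU145 than in PC3 (10.4% of genes) and 9 lower (9.36%). This test shared the spread of each gene over both lines, so it can understate the spread in DU145. The biological coefficient of variation was 0.0543 in this fit, against 0.0226 in PC3 and 0.0817 in DU145 alone. For HIF1A the standard error of the difference was 0.0648, below the 0.0754 in DU145 alone. With the fold threshold 8 were called (8.72% of genes), 5 higher (3.86%) and 3 lower (4.86%). Both limma-voom and DESeq2 called 9, with PFKL added, which by edgeR had -0.72 and did not pass (edgeR adjusted p = 0.0779). HIF1A (difference in log2 fold change 0.69, standard error 0.0648, edgeR adjusted p = 2.43e-07, DU145 minus PC3), EPAS1 (0.90), DDIT4 (0.68) and VEGFA (0.64) had the larger rise in DU145. CA12 (difference in log2 fold change 0.88, standard error 0.120, edgeR adjusted p = 2.89e-05) rose in DU145 and fell in PC3. ADM (-1.94) fell in DU145 and did not pass in PC3, and ENO2 (difference in log2 fold change -0.63, standard error 0.0856, edgeR adjusted p = 2.53e-05) fell in DU145 and rose in PC3, but was no longer called with the trend in GC content and length removed, where HK1 was. ANGPTL4 (difference in log2 fold change -4.26, standard error 0.293, edgeR adjusted p = 4.17e-09) rose in PC3 and fell in DU145, the largest difference among the 8, though a minimum of 10 counts in every sample removed this gene from the test. HK1 fell in PC3 and rose in DU145, with a difference of 0.56 (edgeR adjusted p = 9.38e-06), just under the fold threshold. PFKP (-0.36), ALDOA (-0.35), PGAM1 (-0.28), GAPDH (-0.25), PFKFB3 (0.31) and ERO1A (0.24) passed too. With single libraries omitted, the edgeR adjusted p of PFKP, ALDOA, GAPDH and ERO1A reached 0.112, 0.0716, 0.0724 and 0.128. With the trend in GC content and length removed, PFKP, ALDOA and GAPDH no longer passed (edgeR adjusted p = 0.159, 0.709 and 0.404). BNIP3 and BNIP3L (-0.45 and -0.45) also passed, and NDRG1 (0.37) rose in both lines and more in DU145. The 50 neighbours of BNIP3L had a median difference of -0.47 (44 below 0), and those of NDRG1 0.21 (33 above 0). Medians were 0.19 near HIF1A (40 of 50 above 0) and ERO1A (37 above 0). They were -0.27 near ANGPTL4 (39 of 50 below 0) and -0.23 near ALDOA (42 below 0). The part of these neighbourhoods in the values was not tested. ST6GAL1 itself rose more in DU145 (difference 1.06), as its levels given above show, so line and level of ST6GAL1 cannot be told apart. The difference for EGLN3 rests on few counts in PC3 and did not pass (edgeR adjusted p = 0.934).

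**Figure D5:**
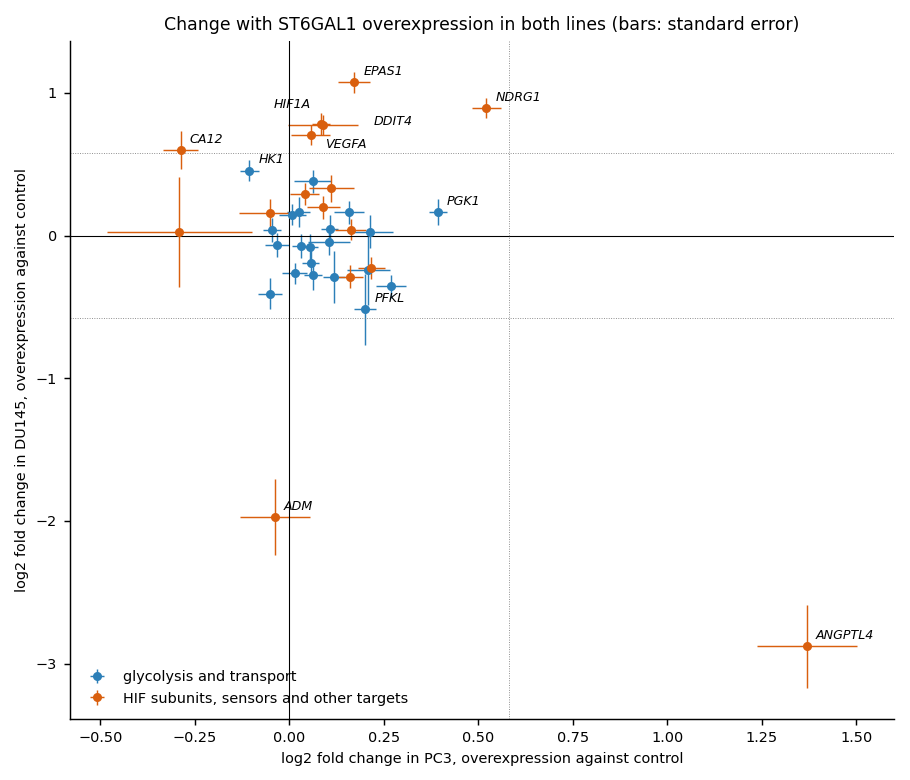
Log2 fold change with ST6GAL1 overexpression in PC3 (horizontal) and DU145 (vertical) of the 37 members tested in both lines, with standard errors as bars (blue, glycolysis and transport; orange, HIF subunits, sensors and other targets). Dotted lines mark 0.58. ANGPTL4 stands alone at lower right, NDRG1 is high in both lines, and most glycolysis members lie within 0.5 of 0 in DU145.

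Other genes of these pathways were counted from lists written by hand. Of 15 HIF partners and regulators, 13 were tested in DU145, with ARNT rising slightly (log2 fold change 0.30, edgeR adjusted p = 0.00829) and ARNT2, the neural partner of HIF, falling from 38.3, 41.1 and 35.9 to 15.5 and 14.3 normalised CPM (log2 fold change -1.35, standard error 0.109, edgeR adjusted p = 1.56e-06). In PC3, 12 were tested, 3 rose and 2 fell and none was called, and CITED2, a HIF-induced competitor of HIF for its coactivators, had 0.37 (edgeR adjusted p = 4.03e-06) and SIAH2 -0.21. VHL did not pass in either line. Of 45 further hypoxia-induced genes, 42 were tested in DU145 (11 rose, 2 fell) and 41 in PC3 (12 rose, 7 fell). In DU145, 10.7% of all genes rose and 9.42% fell, and in PC3 18.8% and 18.5%, which stand beside the counts of this list, of the partners above and of the lists that follow. In DU145 TXNIP, which restrains glucose uptake, rose from 69.6, 67.6 and 58.4 to 250.61 and 211 (log2 fold change 1.84, standard error 0.0958, edgeR adjusted p = 1.28e-07), LOX, a collagen cross-linking enzyme, from 2.92, 4.35 and 4.39 to 11.6 and 9.64 (log2 fold change 1.46, standard error 0.186, edgeR adjusted p = 8.35e-05), and STC1 fell from 22.9, 20.5 and 19.3 to 8.40 and 7.58 (log2 fold change -1.38, standard error 0.135, edgeR adjusted p = 7.86e-06). These 3 were the called genes of that list in DU145, and ZNF395 was the other gene that fell (-0.53). In PC3 the called genes were LOX (0.61), BHLHE41 (0.65) and IGFBP3 (-0.67), while TXNIP rose (0.56) and LOXL2, a relative of LOX, fell (-0.39) by less than the fold threshold.

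Of 38 further glycolysis, lactate and pyruvate genes, 32 were tested in each line, and 7 rose and 1 fell in DU145 while 7 rose and 9 fell in PC3. The fall in DU145 was that of FBP1, a gluconeogenic enzyme that runs against glycolysis, from 12.1, 11.3 and 12.8 to 4.49 and 4.29 normalised CPM (log2 fold change -1.44, standard error 0.153, edgeR adjusted p = 1.58e-05). PGM2, a phosphopentomutase, rose from 47.0, 51.4 and 45.2 to 76.7 and 74.5 (log2 fold change 0.67, standard error 0.0849, edgeR adjusted p = 7.64e-05). HKDC1, a hexokinase-like gene, was called higher in DU145 (0.66) and lower in PC3 (-1.10), on counts of 16, 12 and 22 against 6, 10 and 7. In PC3 the glucose transporters SLC2A12 (0.84) and SLC2A10 (0.66) were called higher, and PDP1, which reactivates pyruvate dehydrogenase, fell (-0.39). PDP1 rose in DU145 (0.44). Of 8 pentose phosphate genes, 7 were tested, and PGD, the dehydrogenase that yields NADPH, rose in DU145 from 214, 223 and 204 to 354 and 328 (log2 fold change 0.69, standard error 0.0744, edgeR adjusted p = 1.99e-05), the one gene of the list that passed there, and fell in PC3 (-0.11), where RPE (-0.12) also fell.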

How the data were processed

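RNA of PC3 and DU145 cells was made into TruSeq Stranded mRNA libraries and sequenced by the authors as single reads, which were trimmed, aligned to hg38 (HISAT2) and assigned to genes (featureCounts). As deposited by the authors, the files hold raw counts per Entrez gene in 1 table for each line, used here without change. The annotation and the strand setting of the counting are not given in the sources used here. Totals per library were 13194485 to 18201359, and floors of 3 counts cover counting error only.

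Genes were kept by filterByExpr, scaled by TMM and tested with edgeR 4.0.16 (robust quasi-likelihood test) in R 4.3.3, with Benjamini-Hochberg adjustment over all genes tested. A gene was called where its adjusted p was under 0.05 and its log2 fold change lay beyond 0.58 in either direction, as in the study. Each line was fitted on its own libraries, the difference between the lines on all 11. Levels are TMM-normalised CPM, per kilobase of union exon where genes are compared. Symbols, positions and promoters came from RefSeq on GRCh38.p14, where 97.7% of the Entrez identifiers matched. Exon lengths (basic transcripts) and GC content (Ensembl canonical transcript) came from GENCODE, matched by symbol and position. Alternatives were limma-voom (limma 3.58.1), DESeq2 1.42.0, other scalings and filters, other fold thresholds, a replicate block, a joint fit and each library left out. Removal of the trend in GC content and length was added after seeing the data. The trend was fitted in each library to its log2 CPM relative to the mean of each gene over the libraries. Any part of a change with overexpression that follows GC content or length is removed with it. On simulated counts with 200 changed genes, the test recovered 97% of changes of 1 on the log2 scale in PC3 (13556 genes) and 91% in DU145 (13605 genes). For the difference between the lines it recovered 72.2%, with 9 false calls (14491 genes), and between the control lines 89.8% (14053 genes). The simulation gave all genes of a comparison the same spread and no GC difference between libraries, unlike the DU145 overexpression libraries. For the difference and between the control lines it also gave both lines 1 spread. The fits of PC3 and DU145 had biological coefficients of variation of 0.0226 and 0.0817, so these recoveries do not cover the unequal spread of the data.

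The members and lists were chosen with earlier results of these data known. Values in every library are given for members called in either line or in the difference, for HIF1A, EPAS1 and the most abundant paralogs. The share of all genes whose groups do not overlap was not counted. Statements of no overlap describe members mostly picked by the test and are no further support. Of the other lists the 2 genes with the smallest adjusted p per line are named, and further genes of these lists, and further members with values, were chosen after their values were seen. Reads of ANKRD37, BNIP3, PFKM, SLC16A3 and TPI1 may be shared with overlapping genes, and 16 members have pseudogenes of their name in RefSeq, up to 65 for GAPDH. Of these pseudogenes only those of TPI1 had counts, 544 against 106377 for TPI1 in all libraries together. Results for some genes of the lists are not reported here.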

Additional observations from a re-analysis of the deposited data

Results flagged for a closer look

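The change with overexpression differed between DU145 and PC3 in 8 members by edgeR's quasi-likelihood test of the difference, with a log2 difference (DU145 minus PC3) over 0.58 in size. That test shared the spread of each gene over both lines, though the DU145 libraries varied more. The difference was positive for EPAS1 (0.90), CA12 (0.88), HIF1A (0.69), DDIT4 (0.68) and VEGFA (0.64), and negative for ANGPTL4 (-4.26), ADM (-1.94) and ENO2 (-0.63). Groups held 2 or 3 libraries, so single libraries could not be tested as outliers.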

How the results depend on the processing

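Over other tests, scalings and filters and with single libraries omitted, 8 to 12 members were called in DU145 (9 as reported), 7 to 11 in the difference (8) and 1 to 2 in PC3 (2). In PC3 1 member (ANGPTL4) was called with at least 10 counts in every sample, without control replicate 1 or without overexpression replicate 3, and that minimum removed ANGPTL4 from the calls in DU145 and in the difference. Without a fold threshold 5056 genes and 20 members were called in PC3, 2747 and 17 in DU145, 2949 and 18 in the difference and 36 members between the lines, and with an absolute log2 fold change over 1 these were 286 genes in PC3, 596 genes and 4 members in DU145, and 659 genes and 2 members in the difference. With each library left out, 670 to 798 genes were called in PC3, 830 to 2072 in DU145 and 1148 to 2270 in the difference, the highest of the latter pair without DU145 overexpression replicate 3, where the share called higher was 32.5% in DU145 and 27.9% in the difference, beside 48.4% and 44.2% with all libraries. With the trend in GC content and length removed, the share in the difference was 54.2%, and between the lines PFKL (-0.21), PGAM1 (0.019) and SLC16A3 (-0.62) changed sign. With the replicate number as a block, 740 genes and 2 members were called in PC3, 1517 and 10 in DU145 (PFKL added), 1452 and 10 in the difference (HK1 and PFKL added), and 9197 and 21 between the lines. The numbers do not establish a pairing, since deviations of same-numbered libraries correlated at 0.10, 0.032 and 0.087 in PC3 and 0.11 and 0.35 in DU145 (11233 genes). Among alternatives for named members, 29 of those in PC3, 15 in DU145, 34 in the difference and 8 between the lines no longer passed. The cause was not tested. ADM, ANGPTL4 and CA9 rest on few counts, and DU145 overexpression on 2 libraries.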
